A study of Homo sapiens with 27 samples.

Results

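CPSF1 is the largest subunit of the cleavage and polyadenylation specificity factor, and its depletion was compared here between a pair of prostate cancer cell lines. LNCaP is a hormone-sensitive line, whereas 22Rv1 is hormone-insensitive. The quantity described is the knockdown effect in 22Rv1 minus the knockdown effect in LNCaP, called the line difference below. It is positive where a gene rose more, or fell less, in 22Rv1 than in LNCaP. It was taken from 18 of the 27 RNA-seq libraries of the series, which are the 9 LNCaP and the 9 22Rv1 libraries.

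Both lines were grown in RPMI medium with serum, transduced with lentivirus carrying a short hairpin RNA and selected with puromycin, so the controls carry the vector and the selection as well. Each line has 3 libraries of a control hairpin (CTRL sh) and 3 of each hairpin against CPSF1 (CPSF1 sh1 and CPSF1 sh2), and the 6 CPSF1 sh libraries of a line were pooled. Cells were harvested 72 h after seeding. Each kind of cell is represented by 1 line, so hormone sensitivity and every other property of the lines cannot be told apart in a line difference. The sources used here do not say whether replicates were separate infections, and p-values measure the spread between these samples.

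The specificity factor binds the AAUAAA signal of a pre-mRNA and, with its endonuclease subunit, cuts the transcript so that a poly(A) tail can be added. Most nuclear-encoded mRNAs obtain their tail in this way, whereas replication-dependent histone mRNAs and the mRNAs of the mitochondrial genome are processed differently. In prostate cancer cells androgens raise lipid and sterol synthesis, whereas oxygen-sensing through hypoxia-inducible factor sets the level of glycolytic and angiogenic genes.

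LNCaP libraries held 8515624 to 13567312 counts and 22Rv1 libraries 9599566 to 12167674, and mitochondrial transcripts took 1.71 to 2.30% and 1.81 to 2.12% of them. All 10 luminal epithelial markers fixed for these lines exceeded 2 CPM (counts scaled to library size) in every library, with summed levels of 5587 to 5671 CPM in LNCaP CTRL sh, 4462 to 4664 CPM in LNCaP CPSF1 sh, 3566 to 3595 CPM in 22Rv1 CTRL sh and 3461 to 3783 CPM in 22Rv1 CPSF1 sh. The immune marker list summed to 2.98 to 3.78 CPM in LNCaP CTRL sh and 10.2 to 18.6 CPM in LNCaP CPSF1 sh, with CD3E and PTPRC at 0 in all LNCaP CTRL sh libraries, and to 1.04 to 1.97 CPM and 2.30 to 7.78 CPM in the matching 22Rv1 groups. Most of these sums came from CD68, which reached 17.7 CPM in LNCaP and 6.95 CPM in 22Rv1. No other immune marker exceeded 0.516 CPM in any library. The basal list summed to at most 2.50 CPM in CTRL sh, and to 4.20 to 6.51 CPM in LNCaP and 7.27 to 24.7 CPM in 22Rv1 CPSF1 sh. Its highest members were KRT14 in LNCaP (up to 6.25 CPM) and KRT15 in 22Rv1 (up to 24.2 CPM). The neuroendocrine list, mostly SYP, summed to 77.6 to 85.9 CPM in 22Rv1 CTRL sh and 61.4 to 74.8 CPM in 22Rv1 CPSF1 sh, and to at most 6.29 CPM in LNCaP. The endothelial list, mostly VWF, summed to 22.3 to 28.0 CPM in LNCaP CTRL sh and 9.29 to 12.7 CPM in LNCaP CPSF1 sh. The part of these small shifts in the results was not tested.

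A pair of libraries stood apart. Of the genes in the table, 97 averaged more than 20 CPM in 22Rv1 with a median below 0.2 CPM in LNCaP. Their summed level in LNCaP CPSF1 sh1 replicate 3 was 6.64% of the mean 22Rv1 level (3262 counts), against 0.124 to 0.182% (57 to 116 counts) in the other 8 LNCaP libraries. In the opposite direction, 17 genes marking LNCaP stood at 0.0753 to 0.157% of their LNCaP level in the 9 22Rv1 libraries. The source of these counts was not tested. The other library is 22Rv1 CPSF1 sh1 replicate 3. It differed from its 2 replicates by a chi-square per degree of freedom of 5.18 and 8.42, against 1.37 to 3.09 in the other 16 replicate pairs, and its CPSF1 level was 140.4 CPM, against 113 and 137 CPM in those replicates. Results are given with both libraries. Part of those that changed are also given without one of them, and list counts without such a statement can also have changed.

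CPSF1 itself was lowered in both lines. In LNCaP it measured 153, 152 and 155 CPM with CTRL sh and 87.5 to 110.0 CPM (median 97.7) with CPSF1 sh, a log2 fold change of -0.66 (SE 0.06, adjusted p = 9.99e-09) in edgeR's quasi-likelihood test. In 22Rv1 it measured 192, 185 and 185 CPM with CTRL sh and 113 to 143 CPM (median 136) with CPSF1 sh, a log2 fold change of -0.50 (SE 0.06, adjusted p = 4.50e-06). Every CPSF1 sh library lay below every CTRL sh library of its line. The line difference of CPSF1 was 0.16 (SE 0.09, adjusted p = 0.159) and did not pass the threshold with the hairpins pooled, although with CPSF1 sh2 alone it was 0.26 (adjusted p = 0.000918). By hairpin, CPSF1 fell by 0.59 (CPSF1 sh1) and 0.73 (CPSF1 sh2) on the log2 scale in LNCaP, and by 0.53 and 0.47 in 22Rv1.

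Knockdown changed more genes, and by more, in LNCaP than in 22Rv1. Of 10579 genes above 2 CPM in all 18 libraries, 6460 (61.1%) passed an adjusted p of 0.05 in LNCaP, 3198 higher (30.2%) and 3262 lower (30.8%). In 22Rv1, 3170 (30.0%) passed, 1602 higher (15.1%) and 1568 lower (14.8%). The median absolute log2 fold change was 0.21 in LNCaP and 0.11 in 22Rv1. Log2 fold changes in the lines correlated across genes with Pearson's r of 0.338 and Spearman's rho of 0.286, as a description over genes that share libraries. In 22Rv1 the hairpins differed in reach, with 2417 genes (22.8%) passing with CPSF1 sh1 and 4529 (42.8%) with CPSF1 sh2, compared with 6368 (60.2%) and 6658 (62.9%) in LNCaP.

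The line difference itself passed for 4530 genes (42.8%), of which 2256 (21.3%) were positive and 2274 (21.5%) negative. It exceeded 2-fold for 214 positive genes (2.02%) and 109 negative genes (1.03%). Genes were then sorted by their calls in each line. The most frequent class was a response in LNCaP with no call in 22Rv1, with 2781 genes (26.3%). A further 561 genes (5.30%) were called in 22Rv1 and not in LNCaP, 509 (4.81%) were called in both lines with the same sign and unequal size, and 152 (1.44%) were called in neither line alone. The remaining 527 genes (4.98%) changed in opposite directions, 218 rising in LNCaP and falling in 22Rv1 (2.06%) and 309 doing the reverse (2.92%).

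**Figure D1:**
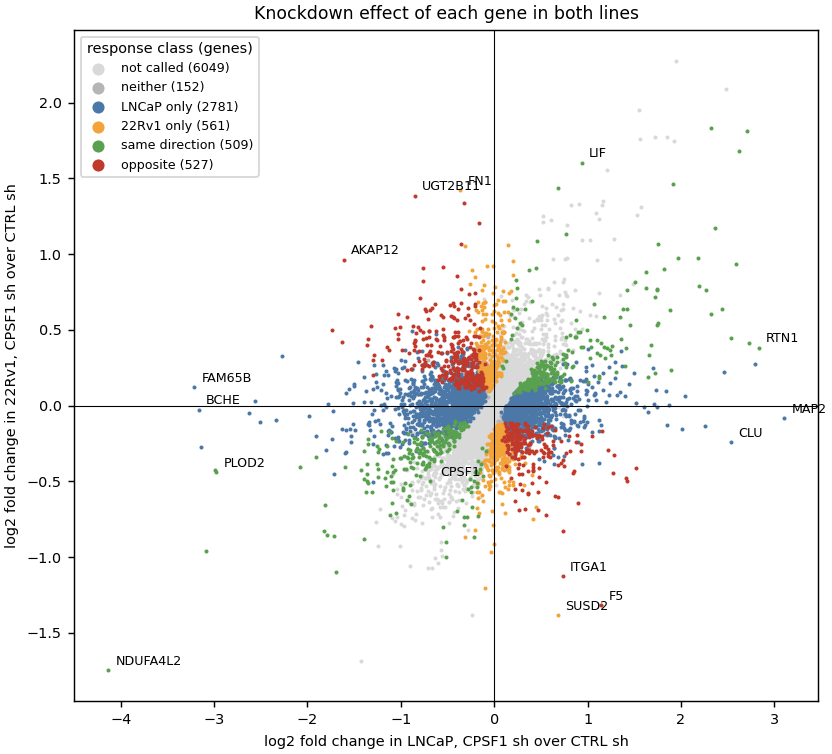
Log2 fold change on CPSF1 knockdown in LNCaP (horizontal axis) against 22Rv1 (vertical axis), 1 point per gene, coloured by response class. The cloud is wider along the LNCaP axis, with a median absolute log2 fold change of 0.21 against 0.11. The 527 opposite genes lie in the upper left and lower right quadrants, beside genes of other classes that are not called opposite.

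All 527 opposite genes kept both signs with each hairpin taken alone. They were called from the same libraries with the hairpins pooled, so this agreement was favoured by their choice and is no independent check. In 344 of the 527 the CPSF1 sh libraries lay entirely above or below the CTRL sh libraries in both lines. The number called opposite varied with the hairpin: it was 402 with CPSF1 sh1 alone, 284 of them among the 527, and 1076 with CPSF1 sh2 alone, 462 of them among the 527. Without LNCaP CPSF1 sh1 replicate 3 it was 518, of which 486 were shared. Without 22Rv1 CPSF1 sh1 replicate 3 it was 766, of which 510 were shared, and the genes called in 22Rv1 went from 3170 to 3992. Without 22Rv1 CTRL sh replicate 3 the opposite genes numbered 345.

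The clearest examples with a rise in LNCaP and a fall in 22Rv1 are described first. They were taken from the 344 genes with separated libraries by the size of the smaller of their changes, so separation of the groups is a condition of their choice. F5 (chr1:169483404-169555826, GRCh37), which encodes coagulation factor V, measured 5.06, 5.88 and 6.44 CPM in LNCaP CTRL sh and 10.5 to 15.4 CPM (median 12.9) in LNCaP CPSF1 sh. In 22Rv1 it measured 9.63, 8.94 and 6.86 CPM with CTRL sh and 2.11 to 4.78 CPM (median 3.34) with CPSF1 sh. F5 was lower in LNCaP than in 22Rv1 with CTRL sh and higher with CPSF1 sh, with a line difference of -2.46 (SE 0.24, adjusted p = 4.53e-08).

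IRS1 (chr2:227596033-227664475), the adaptor that couples insulin and IGF receptors to PI3-kinase, measured 13.7, 14.1 and 15.5 CPM in LNCaP CTRL sh and 25.2 to 29.1 CPM (median 26.1) in CPSF1 sh. In 22Rv1, IRS1 measured 88.6, 89.4 and 83.7 CPM in CTRL sh and 49.4 to 64.2 CPM (median 55.4) in CPSF1 sh. Its level was higher in 22Rv1 than in LNCaP in every library, and knockdown narrowed that gap, with a line difference of -1.53 (SE 0.11, adjusted p = 2.91e-10). HOXB9 (chr17:46698518-46703839), a homeobox transcription factor, measured 6.4, 6.64 and 7.69 CPM and then 9.95 to 13.5 CPM (median 11.1) in LNCaP. In 22Rv1 HOXB9 measured 8.8, 9.31 and 8.78 CPM and then 3.3 to 6.94 CPM (median 5.1). Its line difference was -1.56 (SE 0.22, adjusted p = 5.34e-06).

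PHLDB2 (chr3:111451344-111695364), a protein of the cell cortex that anchors microtubules near adhesions, measured 2.77, 3.83 and 3.13 CPM in LNCaP CTRL sh and 7.0 to 12 CPM (median 8.63) in CPSF1 sh. In 22Rv1 PHLDB2 measured 73.4, 76.4 and 74 CPM in CTRL sh and 48 to 56.9 CPM (median 52.8) in CPSF1 sh, and its line difference was -1.92 (SE 0.20, adjusted p = 9.46e-08). ZMAT1 (chrX:101137262-101187004), a zinc finger gene, had a log2 fold change of 0.56 in LNCaP, -0.72 in 22Rv1 and a line difference of -1.28 (SE 0.24, adjusted p = 0.000196). ITGA1 (chr5:52083730-52255040), the alpha subunit of a collagen-binding integrin, measured 2.96, 2.47 and 2.33 CPM in LNCaP CTRL sh and 3.03 to 7.2 CPM (median 3.94) in CPSF1 sh, against 41, 48.3 and 42.8 CPM and 15.9 to 25.8 CPM (median 18.9) in 22Rv1. The highest LNCaP value of ITGA1 came from CPSF1 sh1 replicate 3. Without that library its LNCaP change of 0.73 became 0.54 and was no longer called, while its line difference went from -1.86 to -1.67 and stayed called.

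Among the 309 genes that fell in LNCaP and rose in 22Rv1, AKAP12 had the largest line difference. AKAP12 (chr6:151561134-151679692), a scaffold that anchors protein kinase A, measured 44.3, 48.8 and 47 CPM in LNCaP CTRL sh and 8.52 to 21.8 CPM (median 13.2) in CPSF1 sh. In 22Rv1, AKAP12 measured 40.5, 39.7 and 34.9 CPM in CTRL sh and 59.4 to 86.8 CPM (median 77.7) in CPSF1 sh. AKAP12 was higher in LNCaP than in 22Rv1 with CTRL sh and lower with CPSF1 sh, a line difference of 2.57 (SE 0.24, adjusted p = 2.08e-08). GDF15 (chr19:18485541-18499986), a secreted stress-responsive member of the TGF-beta superfamily, measured 688, 675 and 664 CPM and then 345 to 429 CPM (median 409) in LNCaP. In 22Rv1 GDF15 measured 30.3, 29.8 and 28.1 CPM and then 35.9 to 70.9 CPM (median 51.4). Its line difference was 1.59 (SE 0.19, adjusted p = 1.06e-06), with LNCaP levels above 22Rv1 levels throughout.

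HSPG2 (chr1:22148738-22263790), which encodes the basement membrane proteoglycan perlecan, measured 68.5, 85.8 and 70.3 CPM in LNCaP CTRL sh and 39.6 to 50.5 CPM (median 44.1) in CPSF1 sh, against 4.52, 5.68 and 3.86 CPM and 6.4 to 10.9 CPM (median 8.85) in 22Rv1. UGT2B11 (chr4:70065669-70080449), a UDP-glucuronosyltransferase, measured 155, 144 and 149.8 CPM and 62.8 to 102 CPM (median 83.4) in LNCaP, against 2.51, 3.16 and 4.5 CPM and 7.0 to 10.7 CPM (median 8.51) in 22Rv1. The line differences were 1.66 (HSPG2) and 2.23 (UGT2B11), the latter uncertain because UGT2B genes are near-identical and their reads can be divided between copies. OTUB2 (chr14:94492675-94515276), a deubiquitinating enzyme, and GPRIN2 (chr10:46994087-47005643) had line differences of 1.51 (SE 0.17, adjusted p = 2.62e-07) and 1.31 (SE 0.19, adjusted p = 7.89e-06). Their LNCaP changes were -0.80 and -0.66, and their 22Rv1 changes 0.71 and 0.65.

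**Figure D2:**
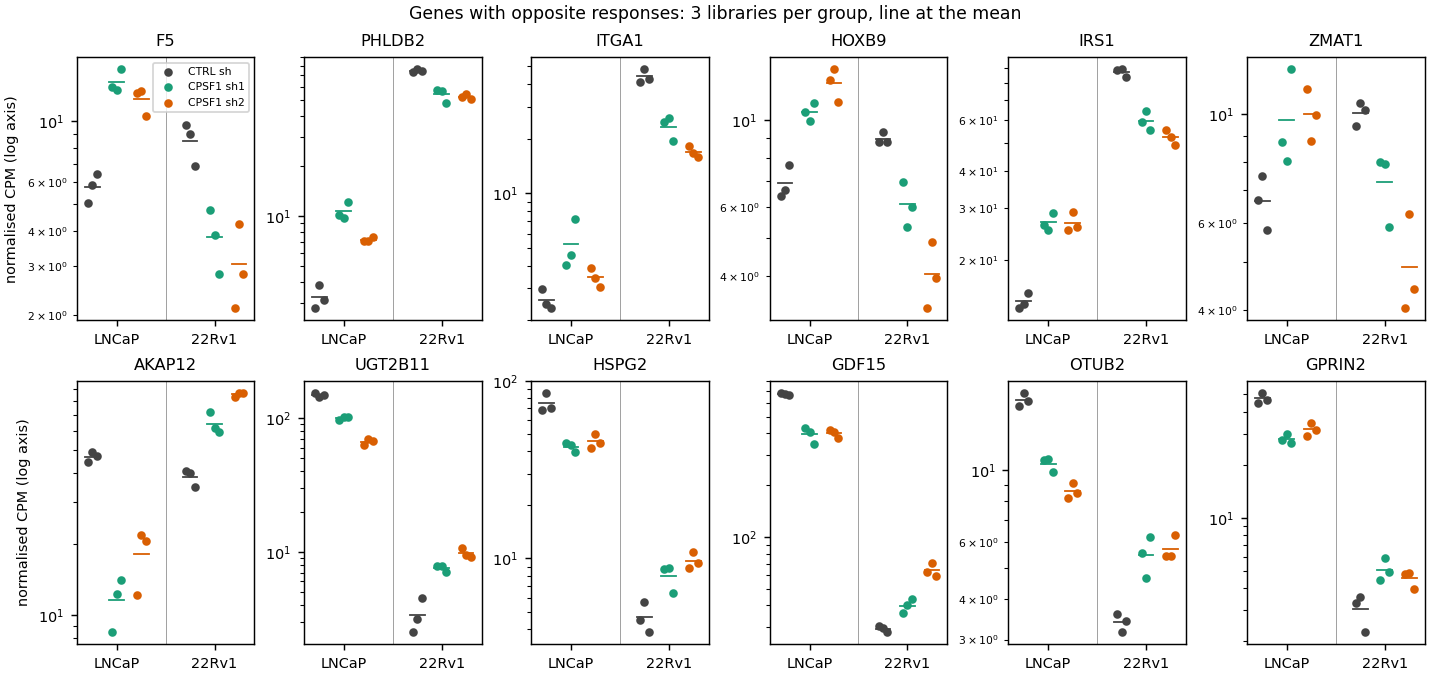
Level in CPM (log axis) of the 12 named opposite genes, 1 panel per gene, with LNCaP on the left and 22Rv1 on the right. Points are the 3 libraries of CTRL sh, CPSF1 sh1 and CPSF1 sh2 and bars their means, and the CPSF1 sh points lie on opposite sides of the CTRL sh points in the lines, as in AKAP12, with medians after knockdown of 13.2 CPM in LNCaP and 77.7 CPM in 22Rv1.

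Some of the largest line differences came from genes that moved in LNCaP without a call in 22Rv1. MAP2, a microtubule-associated protein typical of neurons, measured 4.59, 5.11 and 4.47 CPM in LNCaP CTRL sh and 34.6 to 50.2 CPM (median 40.4) in CPSF1 sh, whereas 22Rv1 held 176, 167 and 167 CPM and 138 to 175 CPM (median 163). IGFBP3, the main carrier of IGF in serum, measured 6.98, 6.56 and 6.44 CPM and 37.3 to 58.7 CPM (median 45.3) in LNCaP, against 171, 177 and 169 CPM and 139 to 284 CPM (median 209.6) in 22Rv1. Their line differences were -3.18 (SE 0.16, adjusted p = 1.90e-12) and -2.51 (SE 0.37, adjusted p = 1.18e-05). ID2, an inhibitor of basic helix-loop-helix factors, measured 5.73, 6.22 and 6.35 CPM and 25.8 to 37.7 CPM (median 27.6) in LNCaP, and its line difference was -2.39 (SE 0.14, adjusted p = 2.12e-11). CLU, which encodes the secreted chaperone clusterin, measured 12.7, 10.8 and 14 CPM and 58.2 to 112 CPM (median 64.5) in LNCaP, and its line difference was -2.77 (SE 0.21, adjusted p = 9.94e-10). All 4 genes were more abundant in every 22Rv1 library than in any LNCaP library. Without LNCaP CPSF1 sh1 replicate 3, which held the highest value of CLU and of ID2, both were called opposite, as was ID2 without 22Rv1 CPSF1 sh1 replicate 3.

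The LNCaP-only falls included genes that LNCaP expressed at high levels and 22Rv1 at low levels. BCHE, which encodes butyrylcholinesterase, measured 267, 268 and 263 CPM in LNCaP CTRL sh and 26 to 32.7 CPM (median 29.8) in CPSF1 sh, and 22Rv1 held 19.2, 15.7 and 17.1 CPM and 12.2 to 19.6 CPM (median 17.8). The LNCaP levels of BCHE after knockdown stayed above the 22Rv1 levels, and in 22Rv1 the groups overlapped. The synaptic adhesion gene SLITRK3 and FAM65B had LNCaP changes of -2.27 and -3.21 on the log2 scale and 22Rv1 values of 0.33 and 0.12. Line differences were 3.14 (SE 0.14, adjusted p = 2.02e-13) for BCHE, 2.60 for SLITRK3 and 3.33 for FAM65B.

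The 4 named rises called in 22Rv1 only are FN1, EFNB2, DRAM1 and NBPF11. FN1, which encodes fibronectin, measured 96.6, 104 and 95.4 CPM in 22Rv1 CTRL sh and 149.8 to 378 CPM (median 265) in CPSF1 sh, against 1179, 1226 and 1301 CPM and 812 to 1118 CPM (median 945) in LNCaP. EFNB2, the membrane ligand ephrin-B2, measured 45.8, 50.5 and 42.4 CPM and 63.8 to 128 CPM (median 96.1) in 22Rv1, against 150.2, 155 and 155 CPM and 108 to 136 CPM (median 125) in LNCaP. For both genes all LNCaP CPSF1 sh libraries lay below the LNCaP CTRL sh libraries, but the LNCaP changes of -0.36 (SE 0.21, adjusted p = 0.145) and -0.32 (SE 0.16, adjusted p = 0.0958) did not pass. Line differences were 1.78 (SE 0.32, adjusted p = 0.000126) and 1.37 (SE 0.25, adjusted p = 0.000131). The hairpins differed in 22Rv1, where the log2 fold change of FN1 was 0.72 with CPSF1 sh1 and 1.89 with CPSF1 sh2, and that of EFNB2 was 0.54 and 1.43. DRAM1, a p53-induced regulator of autophagy, measured 3.69, 3.72 and 3.75 CPM and 5.25 to 9.1 CPM (median 6.37) in 22Rv1, with a line difference of 1.06 (SE 0.20, adjusted p = 0.000251). The fourth gene, NBPF11, had a line difference of 1.07, which is uncertain because the NBPF family consists of near-identical copies.

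Falls in 22Rv1 without a call in LNCaP included 3 homeobox genes. HOXA10 measured 8.38, 8.84 and 9.96 CPM in 22Rv1 CTRL sh and 2.29 to 5.72 CPM (median 3.84) in CPSF1 sh. IRX3 measured 124, 127 and 115 CPM and 58.5 to 97.5 CPM (median 75.3), and its neighbour on chromosome 16, IRX5, measured 40.9, 41 and 41 CPM and 19.8 to 29.6 CPM (median 23.8). In LNCaP the log2 fold changes were -0.10, 0.44 and 0.42, and line differences were -1.11 (SE 0.23, adjusted p = 0.000417), -1.11 (SE 0.26, adjusted p = 0.00164) and -1.16 (SE 0.34, adjusted p = 0.00838). SUSD2, a membrane protein with a sushi domain, measured 88.6, 91.1 and 83.2 CPM and 23.2 to 43.5 CPM (median 33.6) in 22Rv1, with a line difference of -2.07 (SE 0.42, adjusted p = 0.000443). LNCaP CPSF1 sh1 replicate 3 held the highest LNCaP value of SUSD2 and of IRX5, and without it their line differences were -1.82 and -0.87, both still called.

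Of the 509 genes that moved the same way in both lines, 459 changed more in LNCaP and 50 more in 22Rv1. NDUFA4L2, a mitochondrial protein induced by hypoxia, measured 198, 204 and 182 CPM in LNCaP CTRL sh and 4.2 to 23.4 CPM (median 8.08) in CPSF1 sh. In 22Rv1 NDUFA4L2 measured 48.2, 59.7 and 48 CPM and 9.17 to 28.8 CPM (median 13). It fell in both lines without overlap, by 4.13 and 1.75 on the log2 scale, a line difference of 2.39 (SE 0.41, adjusted p = 7.00e-05). PLOD2, a collagen lysyl hydroxylase, fell by 2.97 and 0.44, and the reticulon gene RTN1 and FAM110B rose by 2.83 and 2.73 in LNCaP against 0.38 and 0.42 in 22Rv1. Larger changes in 22Rv1 were smaller in size, with line differences of -0.56 for GNPTAB, a subunit of the enzyme that tags lysosomal hydrolases, and -0.65 for the glutamate transporter SLC1A1. The interferon-induced ligase HERC5 (0.75, adjusted p = 0.0431) and the cytokine LIF (0.67, adjusted p = 0.0483) lost their calls under 18 of 30 other settings each. SLC1A1 was called in 22Rv1 and no longer in LNCaP once LNCaP CPSF1 sh1 replicate 3 was left out.

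Genes expressed in 1 line could not be compared between lines and are given by line. Of 153 genes above 2 CPM in all LNCaP libraries and below 1 CPM in every 22Rv1 library, 39 rose and 59 fell in LNCaP, in a fit where 62.1% of 11096 genes were called. SCD5, a stearoyl-CoA desaturase, went from 16.7 to 19.8 CPM in CTRL sh to 4.67 to 6.29 CPM in CPSF1 sh, and the laminin chain LAMA1 from 2.68 to 3.07 CPM to 9.62 to 12.3 CPM. Of 344 genes restricted to 22Rv1 in the same way, 39 rose and 74 fell, with 26.9% of 11728 genes called. SNTB1, a syntrophin of the dystrophin complex, went from 17.1 to 18.3 CPM to 6.42 to 9.95 CPM there, and the Ras-related DIRAS2 from 2.22 to 3.46 CPM to 5.71 to 7.73 CPM. The 22Rv1 set depends on the LNCaP library that stood apart: without it 545 genes met the limits, of which 58 rose and 140 fell.

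Gene lists were next compared by counts and medians beside those of all genes tested, whose median line difference was -0.0015. Of all genes tested, 21.3% had a positive and 21.5% a negative called line difference. In LNCaP 30.2% of them rose and 30.8% fell, and in 22Rv1 15.1% rose and 14.8% fell. Cholesterol synthesis and uptake held the most opposite genes of the lists, at 10, ahead of androgen-induced genes at 8. Cells make cholesterol from acetyl-CoA through the mevalonate pathway, and SREBP2 raises its genes when sterols are scarce. Of 23 members tested, 22 fell in 22Rv1 and none rose, whereas 10 rose and 4 fell in LNCaP. The line difference was negative and called for 17 members (73.9%) and positive for none, with a median of -0.61. Of the 17, 10 were opposite and 7 were called in 22Rv1 only. Without LNCaP CPSF1 sh1 replicate 3 the 17 calls became 9 opposite and the median -0.59, HMGCS1 losing its LNCaP call. Without 22Rv1 CPSF1 sh1 replicate 3, 18 line differences were negative and 11 genes opposite, MVD among them.

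MVK, the kinase that acts on mevalonate, measured 26.8, 27.3 and 23.3 CPM in LNCaP CTRL sh and 42.1 to 48.5 CPM (median 45) in CPSF1 sh. In 22Rv1 MVK measured 82.2, 78.4 and 82.3 CPM in CTRL sh and 57 to 77.4 CPM (median 65.8) in CPSF1 sh. The groups were separate in both lines. Its line difference of -1.11 (SE 0.12, adjusted p = 2.50e-07) was the largest in size of the list. Other opposite members had line differences of -0.96 for the sterol demethylase CYP51A1, -0.79 for the reductase DHCR7 and -0.82 for the isomerase EBP. Members called in 22Rv1 only included squalene synthase FDFT1 (-0.55 in 22Rv1, 0.14 in LNCaP), squalene epoxidase SQLE (-0.42, 0.10) and the SREBP regulator INSIG1 (-0.61, -0.17). The 6 members without a called line difference included the sterol enzymes TM7SF2 (0.09) and HSD17B7 (0.19), both of which fell in LNCaP.

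Promoters of this list often hold a CCAAT box, the motif bound by NF-Y, which acts beside SREBP2. In RefSeq promoters (GRCh38.p14, a later build than that of the counts, 250 bases before to 50 after the start), CCAAT or its complement ATTGG occurred in 15 of 18 matched members (83.3%) and in 34.6% of 35116 promoters. Shown are the 4 members with the motif that had the largest line differences, on the strand of the gene with the motif in capitals. STARD4, FDPS, SREBF2, TM7SF2 and HSD17B7 also held the motif without a called line difference, and CYP51A1 and IDI1 had called ones without it. Each member was matched to the first promoter entry of its symbol, whereas the share of all promoters covers every entry, of genes tested or not. The sets are therefore unlike, and enrichment was not tested. A match is a description of the letters and no evidence of binding.
MVK (chr12:109573738-109573762, plus strand): gcgcgctctgATTGGctggcctgaa
HMGCS1 (chr5:43313498-43313522, minus strand): accggccgcgATTGGctgtgggagc
EBP (chrX:48521768-48521792, plus strand): tcgcttcaccATTGGctcgctccgt
DHCR7 (chr11:71448427-71448451, minus strand): tccgcctccgATTGGcaggcaatcg

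Of 13 fatty acid genes, 9 fell in 22Rv1 and none rose, whereas 2 rose and 5 fell in LNCaP, and 4 line differences were negative (30.8%) and 2 positive (15.4%), against 21.5% and 21.3% of all genes. The elongases ELOVL7 (1.27 in LNCaP, -0.45 in 22Rv1) and ELOVL1 (0.65, -0.16) were opposite. Their line differences were -1.71 (SE 0.10, adjusted p = 1.26e-11) and -0.81 (SE 0.07, adjusted p = 1.13e-08).

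Targets of hypoxia-inducible factor fell in both lines, and further in LNCaP. Hypoxia-inducible factor is destroyed by prolyl hydroxylation when oxygen is available and otherwise binds the core ACGTG of its response element. Of 17 non-glycolytic targets tested, 16 fell in LNCaP and 13 in 22Rv1, 1 rose in LNCaP and none in 22Rv1. The line difference was positive and called for 13 (76.5%) and negative for none, with a median of 0.51 (0.71 with CPSF1 sh1 alone). Of these, 10 fell in both lines and 3 were called in LNCaP only, namely EGLN3, a prolyl hydroxylase of the factor itself, INSIG2 and FAM162A. Without LNCaP CPSF1 sh1 replicate 3 the count was 12 and the median 0.48, as DDIT4 lost its call. Without 22Rv1 CPSF1 sh1 replicate 3 the count was also 12, again without DDIT4, the median was 0.43, and INSIG2 fell in both lines.

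VEGFA, the endothelial growth factor, measured 297, 304 and 304 CPM in LNCaP CTRL sh and 119.7 to 135 CPM (median 126) in CPSF1 sh. In 22Rv1 VEGFA measured 110.0, 102 and 96.7 CPM and 77.7 to 92.9 CPM (median 80.9). Levels of VEGFA in LNCaP, above those of 22Rv1 in every CTRL sh and CPSF1 sh library, came close to the 22Rv1 CTRL sh values after knockdown, a line difference of 0.93 (SE 0.08, adjusted p = 4.17e-09). P4HA1, a collagen prolyl hydroxylase, measured 225, 219.8 and 199.6 CPM and 74.4 to 92.7 CPM (median 83.1) in LNCaP, against 96.6, 102 and 89.1 CPM and 62.9 to 80.8 CPM (median 69.2) in 22Rv1, a line difference of 0.91 (SE 0.10, adjusted p = 3.51e-07). PDK1, the kinase that restrains pyruvate entry into mitochondria, fell by 1.39 in LNCaP and 0.88 in 22Rv1 on the log2 scale.

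In RefSeq promoters (GRCh38.p14), ACGTG or its complement CACGT occurred in 7 of 12 matched hypoxia members (58.3%) and in 21.4% of 35116 promoters. As for the cholesterol list, these shares come from unlike sets of promoters, and enrichment was not tested. PDK1, KDM3A, MXI1 and EGLN3 had called line differences without the motif, and BNIP3 and KDM4B held it without a called line difference. Shown are the 3 of the 7 members with the motif that fell in both lines with a called line difference, with the motif in capitals.
P4HA1 (chr10:73096938-73096962, minus strand): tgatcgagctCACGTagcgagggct
DDIT4 (chr10:72273789-72273813, plus strand): aacgttgcttACGTGcgcccggagt
EGLN1 (chr1:231422286-231422310, minus strand): gccgtggtgtACGTGcagagcgcgc

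Glycolytic enzymes showed the same order with more exceptions. Of 16 enzymes, 14 fell in LNCaP and 8 in 22Rv1. The line difference was positive for 7 (43.8%) and negative for 1 (6.25%), with a median of 0.15, against 21.3% and 21.5% of all genes. ENO2, the neuronal enolase isoform, measured 109, 115 and 128 CPM in LNCaP CTRL sh and 15.8 to 29.5 CPM (median 19.2) in CPSF1 sh, whereas 22Rv1 held 248, 255 and 244 CPM and 205 to 273 CPM (median 223) with overlap between the groups. PFKP, the platelet isoform of phosphofructokinase, measured 288, 294 and 259.7 CPM and 94.8 to 133 CPM (median 117) in LNCaP, against 26, 26.3 and 26.1 CPM and 28 to 35.5 CPM (median 29.5) in 22Rv1. Line differences were 2.40 (SE 0.17, adjusted p = 2.58e-10) and 1.48 (SE 0.13, adjusted p = 5.85e-09). The 1 negative line difference was that of the hexokinase HK1, at -0.49 (SE 0.05, adjusted p = 2.47e-07). HK1 rose in LNCaP from 185, 175 and 185 CPM to 235 to 258 CPM (median 242). In 22Rv1 HK1 measured 209, 210.0 and 208 CPM and 193 to 206 CPM (median 199). The other 8 enzymes had no called line difference, among them GAPDH (0.05), LDHA (0.09) and ALDOA (0.17).

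Transporters and phosphofructokinase-2 enzymes gave 6 positive (50%) and 2 negative (16.7%) line differences of 12. Their median was 0.40 (0.18 under edgeR's own expression filter, 0.20 without a filter and 0.14 with all 27 libraries in the fit). The lactate transporter SLC16A1 measured 342, 335 and 348 CPM and 181 to 199.6 CPM (median 193) in LNCaP. In 22Rv1 SLC16A1 measured 114, 115 and 124 CPM and 105 to 119.7 CPM (median 114), with overlap between the groups. Its line difference was 0.78 (SE 0.06, adjusted p = 3.47e-09), and that of the hypoxia-induced PFKFB4 was 1.57 (SE 0.14, adjusted p = 8.11e-09). Transcripts of both subunits of the mitochondrial pyruvate carrier rose in LNCaP and fell in 22Rv1, with log2 fold changes of 0.52 and -0.31 for MPC2 and of 0.27 and -0.45 for MPC1. Their line differences were -0.82 (SE 0.07, adjusted p = 1.17e-08) and -0.72 (SE 0.14, adjusted p = 0.00020). Over the 27 members of the tricarboxylic acid list, 12 line differences were negative (44.4%) and 2, of SDHC and SUCLG2, positive (7.41%).

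Androgen-induced genes did not move as a block. Of 26 tested, 14 rose and 8 fell in LNCaP, whereas 3 rose and 9 fell in 22Rv1. The share falling in LNCaP was near the 30.8% of all genes. The line difference was negative for 12 (46.2%) and positive for 4 (15.4%), with a median of -0.17. In this list 8 genes were opposite, against 4.98% of all genes. Of these 8, 7 rose in LNCaP and fell in 22Rv1. FKBP5, a co-chaperone of steroid receptors, measured 128, 132 and 139.8 CPM in LNCaP CTRL sh and 249 to 308 CPM (median 273) in CPSF1 sh. In 22Rv1 FKBP5 measured 590.2, 618 and 607 CPM and 501 to 566 CPM (median 519). The groups were separate in both lines, and its line difference was -1.24 (SE 0.07, adjusted p = 1.51e-11). The elongation factor ELL2 measured 48.4, 50.3 and 49.9 CPM and 132 to 164 CPM (median 138) in LNCaP, against 471, 489 and 494 CPM and 348 to 387 CPM (median 364) in 22Rv1, a line difference of -1.93 (SE 0.08, adjusted p = 6.23e-14). PMEPA1, ZBTB10, HOMER2 and CENPN were also among them, with line differences of -1.28, -1.14, -0.91 and -0.43. Without LNCaP CPSF1 sh1 replicate 3, CENPN left the opposite class and AZGP1 (0.45 in LNCaP, -0.21 in 22Rv1) entered it. Without 22Rv1 CPSF1 sh1 replicate 3, AZGP1 entered it as well and 9 genes were opposite.

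KLK3, which encodes prostate-specific antigen, was the reverse case. It measured 1086, 1161 and 1126 CPM in LNCaP CTRL sh and 322 to 414 CPM (median 362) in CPSF1 sh. In 22Rv1 KLK3 measured 42.5, 37.9 and 43.2 CPM and 48.9 to 58 CPM (median 56.2). Its level fell in LNCaP and rose in 22Rv1 without overlap, a line difference of 2.05 (SE 0.10, adjusted p = 1.11e-12), while LNCaP stayed above 22Rv1 in every library. TMPRSS2, another androgen-induced gene, measured 612, 640.4 and 625 CPM and 414 to 437 CPM (median 433) in LNCaP, against 46.4, 50.3 and 48.6 CPM and 30.1 to 35.1 CPM (median 32.4) in 22Rv1. TMPRSS2 fell in both lines, and its line difference of -0.03 (SE 0.06, adjusted p = 0.751) did not pass the threshold.

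Of the 10 luminal markers, 2 rose and 6 fell in LNCaP, and 1 rose and 1 fell in 22Rv1. The line difference was positive for 4 (40%) and negative for 1 (10%) of these markers. Line differences of the marker list ran from -0.48 to 2.05. The transcription factors FOXA1 and HOXB13, 2 of the 6 that fell in LNCaP, did so by 0.48 and 0.30 on the log2 scale. In 22Rv1 these 2 genes had values of 0.06 and 0.07 without a call. Their line differences were 0.54 (SE 0.05, adjusted p = 3.62e-08) and 0.37 (SE 0.07, adjusted p = 0.000132). Of 8 enzymes that inactivate or convert androgens, 3 line differences were positive (37.5%) and 2 negative (25%). UGT2B15, which glucuronidates dihydrotestosterone, measured 345, 323 and 314 CPM in LNCaP CTRL sh and 69.3 to 98.6 CPM (median 82.8) in CPSF1 sh, whereas 22Rv1 held 89.1, 89.1 and 88.1 CPM and 81.9 to 91.3 CPM (median 83.2). Its line difference was 1.91 (SE 0.12, adjusted p = 5.52e-11), with the same reserve about near-identical UGT2B copies.

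Ribosome biogenesis factors and proteasome subunits mostly rose in LNCaP, with fewer calls in 22Rv1. Cytosolic ribosomal proteins did not follow, as 5 of 82 rose and 34 fell in LNCaP, and 1 rose and 24 fell in 22Rv1. Of 25 ribosome biogenesis factors, 18 rose and 3 fell in LNCaP, and 5 rose and 1 fell in 22Rv1. Among these factors 16 line differences were negative (64%) and 2 positive (8%), with a median of -0.22. RRP12, which exports ribosomal subunits, measured 79, 77.3 and 80.4 CPM and 126 to 138 CPM (median 133) in LNCaP, against 112, 116 and 116 CPM and 111 to 134 CPM (median 123) in 22Rv1, a line difference of -0.65 (SE 0.08, adjusted p = 5.20e-07). MYC itself, which activates this group, was an exception, with -0.35 in LNCaP, -0.03 in 22Rv1 and a line difference of 0.33 (SE 0.06, adjusted p = 0.000178). Of 34 proteasome subunits, 25 rose and 3 fell in LNCaP, and 6 rose and none fell in 22Rv1. Among these subunits 15 line differences were negative (44.1%) and 3 positive (8.82%), with a median of -0.16. Without 22Rv1 CPSF1 sh1 replicate 3, 22 were negative and 3 positive. The regulatory subunit gene PSMD8 measured 238, 233 and 225 CPM and 297 to 318 CPM (median 312) in LNCaP, against 179, 187 and 177 CPM and 173 to 194 CPM (median 179) in 22Rv1.

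Of 38 genes of the G1/S transition and DNA replication, 16 rose and 5 fell in LNCaP, and none rose and 12 fell in 22Rv1. Among these genes 15 line differences were negative (39.5%) and 1 positive (2.63%), with a median of -0.18. That median depended on the hairpin, at -0.057 for CPSF1 sh1 and -0.31 for CPSF1 sh2 taken singly. Without 22Rv1 CPSF1 sh1 replicate 3, 19 line differences of this list were negative and 1 positive. MCM5, a subunit of the replicative helicase, measured 83.3, 81.9 and 82.7 CPM and 76.8 to 94.5 CPM (median 89.9) in LNCaP with overlap, against 254, 249 and 235 CPM and 174 to 206 CPM (median 180.0) in 22Rv1 without it, a line difference of -0.50 (SE 0.09, adjusted p = 6.65e-05). Genes of mitosis had 2 positive (5.88%) and 5 negative (14.7%) line differences of 34 with the hairpins pooled, both below the shares of all genes. Taken singly, CPSF1 sh1 gave 16 positive and 3 negative, and CPSF1 sh2 gave 3 positive and 18 negative. Of these mitosis genes 6 rose and 14 fell in LNCaP, and 0 rose and 6 fell in 22Rv1. Their median changed sign with the hairpin, at 0.19 for CPSF1 sh1 and -0.14 for CPSF1 sh2 taken singly.

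**Figure D3:**
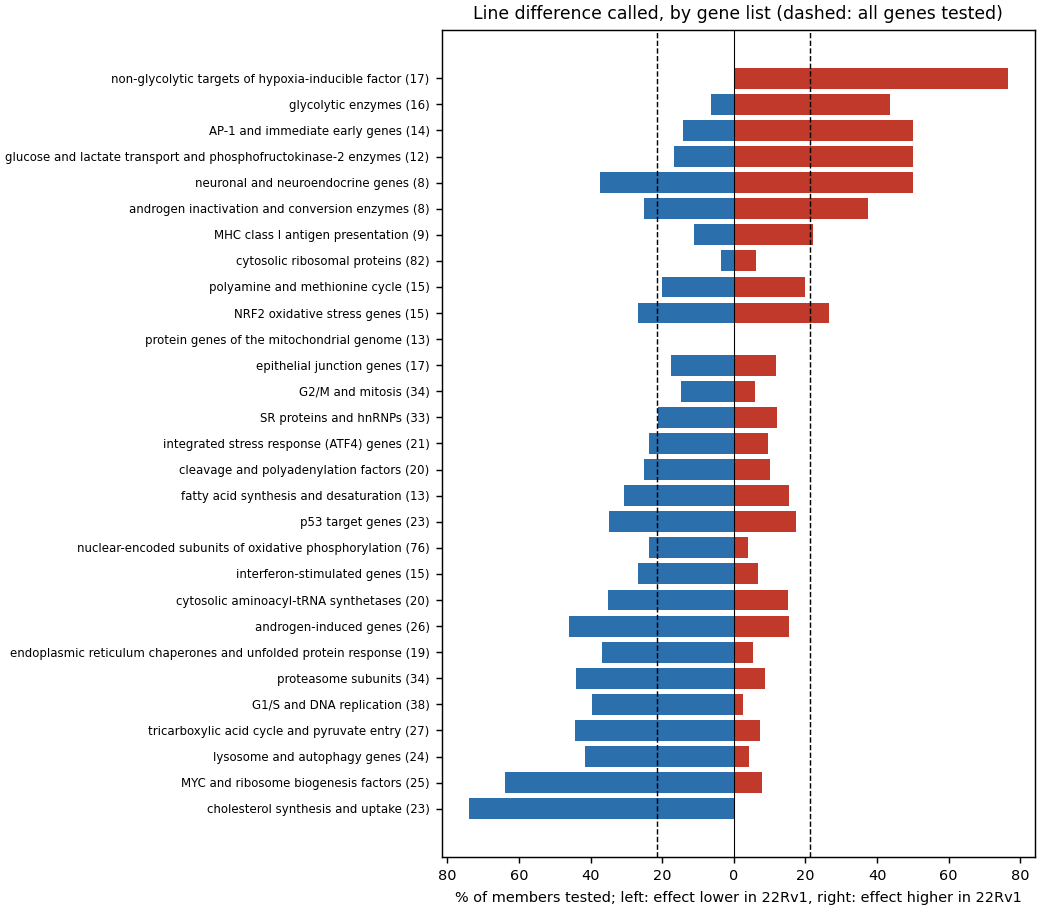
Percent of the tested members of each gene list (number in parentheses, lists of 8 or more) with a called line difference, negative to the left and positive to the right, with dashed lines at the 21.5% and 21.3% of all genes. Cholesterol genes reach furthest left, with 17 of 23 members negative, and hypoxia targets furthest right, with 13 of 17 positive.

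Immediate early genes gave 7 positive (50%) and 2 negative (14.3%) line differences of 14, with a median of 0.29. KLF4, a zinc finger transcription factor, measured 19.9, 21 and 22.4 CPM and 9.97 to 12.8 CPM (median 11.7) in LNCaP, against 34.4, 31.1 and 35.4 CPM and 34.1 to 37.6 CPM (median 35.7) in 22Rv1, and was called in LNCaP only with a line difference of 0.96 (SE 0.10, adjusted p = 1.56e-07). The exceptions KLF6 and FOSL2 rose in LNCaP, by 0.78 and 0.65, with line differences of -0.94 and -0.80. Of 23 p53 targets, 16 rose and 1 fell in LNCaP and 17 rose and 1 fell in 22Rv1, and line differences were called for 12 of 23, 4 positive (17.4%) and 8 negative (34.8%). The other 11, CDKN1A among them, had no called line difference. TP53I3 (1.38 in LNCaP, 0.63 in 22Rv1), the death receptor FAS (0.76, 0.17) and the p53 ligase MDM2 (0.79, 0.37) had the larger change in LNCaP. BTG2 (0.01, 0.78), SESN1 (0.15, 0.74) and PHLDA3 (0.46, 1.09) had the larger change in 22Rv1. These were chosen from the 12 called members after their values were seen, and their line differences were -0.74, -0.59, -0.42, 0.77, 0.59 and 0.63. The p53 list median changed sign with the hairpin, at -0.21 for CPSF1 sh1 and 0.056 for CPSF1 sh2 taken singly.

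The remaining lists are given by their counts, beside the 21.3% positive and 21.5% negative of all genes. Negative line differences outnumbered positive ones among genes of the unfolded protein response (7 and 1 of 19), aminoacyl-tRNA synthetases (7 and 3 of 20), interferon-stimulated genes (4 and 1 of 15), the integrated stress response (5 and 2 of 21) and splicing factors (7 and 4 of 33). In the last 2 lists the negative shares, 23.8% and 21.2%, were near that of all genes. The unfolded protein response calls depended on the hairpin. CPSF1 sh1 taken singly gave 15 negative and 1 positive (median -0.31), and CPSF1 sh2 gave 5 negative and 4 positive (median -0.031). The integrated stress response median changed sign with the hairpin, at 0.19 for CPSF1 sh1 and -0.17 for CPSF1 sh2 taken singly. Leaving out LNCaP CPSF1 sh1 replicate 3, or 22Rv1 CPSF1 sh1 replicate 3 instead, left 5 negative and 0 positive in that list. Aminoacyl-tRNA synthetases gave 7 negative and 1 positive without LNCaP CPSF1 sh1 replicate 3. Positive line differences outnumbered negative ones among NF-kB targets (3 and 1 of 5), antigen presentation genes (2 and 1 of 9) and neuronal genes (4 and 3 of 8). For antigen presentation the positive share, 22.2%, was near that of all genes. NRF2 targets (4 and 4 of 15) and polyamine genes (3 and 3 of 15) were even. Oxidative phosphorylation subunits gave 3 positive and 18 negative of 76, with 30 negative once 22Rv1 CPSF1 sh1 replicate 3 was left out. Cytosolic ribosomal proteins gave 5 positive and 3 negative of 82, or 4 and 9 without that library, and the 13 protein genes of the mitochondrial genome had no call. All 6 replication-dependent histone genes tested rose in both lines, and none had a called line difference with the hairpins pooled (median 0.23). For CPSF1 sh2 taken singly 5 of the 6 were positive (median 0.47), and for CPSF1 sh1 none was positive and 1 negative (median -0.052). Cleavage and polyadenylation factors gave 2 positive and 5 negative of 20, among them CSTF3, a subunit of the cleavage stimulation factor, which rose by 1.07 in LNCaP and 0.67 in 22Rv1 (line difference -0.40 (SE 0.08, adjusted p = 0.000517)).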

How the data were processed

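RNA was made into libraries with a stranded poly(A) mRNA kit and sequenced by the authors. Per the submitters' processing notes and the study's methods, reads were aligned with HISAT2 2.1.0 to GRCh37 and counted on the reverse strand over exons of protein-coding genes with featureCounts of Subread (2.0.3 in the notes). The deposited values are raw counts per gene symbol, not normalized, and counts at the gene level cannot resolve isoforms or divide reads between near-identical copies.

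From 20268 genes, the 10579 above 2 CPM in all 18 LNCaP and 22Rv1 libraries were fitted with edgeR 4.0.16 (R 4.3.3, limma 3.58.1; TMM scaling, quasi-likelihood F-test in its older form, 4 group means, Benjamini-Hochberg adjustment over all genes tested, threshold 0.05). Contrasts were the knockdown effect in each line and their difference, and a gene's class joins the 3 calls. Changes are log2, with SE taken from the F statistic. CPM values are counts divided by TMM-scaled library size. Genes above 2 CPM in one line and below 1 CPM in the other were fitted in the 9 libraries of their line. The biological coefficient of variation was 5.41%, and replicate pairs differed by chi-square over degrees of freedom of 1.37 to 8.42, so none was counted as a duplicate. The script was tested on simulated data.

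Named genes are CPSF1, genes with separated libraries and the largest changes in each class, genes restricted to 1 line, list members, and genes named by the study. The comparison, lists and rules were chosen with earlier results of these data known. Alternatives were other scaling, DESeq2 1.42.0, the newer edgeR form, other filters, each hairpin alone or as its own group, a replicate block, all 27 libraries, stricter thresholds and leaving out each library. Motifs were searched by symbol in RefSeq promoters (GRCh38.p14). The 9 LNCaP95 libraries were fitted separately. Symbols without a row in the table were not analysed here. Some list members and named genes are not reported here, though counts and medians of the lists include them.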

Additional observations from a re-analysis of the deposited data

Results flagged for a closer look

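Of 75 sets of 6 CPSF1 sh libraries checked for a single library far from the others, 8 held one. The sets share libraries, mix 2 hairpins and mostly hold genes chosen for their changes, so no rate expected by chance applies to them. Of these 8, 6 concern LNCaP CPSF1 sh1 replicate 3. There the 97 genes marking 22Rv1 reached 6.64% of their 22Rv1 level, against 0.124 to 0.182% in the other LNCaP libraries. In the same library SUSD2 was at 9.27 CPM (others 3.20 to 5.21), IRX5 at 7.39 CPM (2.28 to 3.77), CLU at 112 CPM (58.2 to 73.6), ID2 at 37.7 CPM (25.8 to 30.1) and ITGA1 at 7.20 CPM (3.03 to 4.56). All 5 genes are more abundant in 22Rv1 than in LNCaP. In 22Rv1 CPSF1 sh1 replicate 3, ID2 was at 178 CPM (others 149 to 158) and RTN1 at 18.9 CPM (21.5 to 22.4).

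The knockdown effect differed between lines for the 12 opposite genes named in the report. All CPSF1 sh libraries of a line lay on 1 side of their controls and the lines on opposite sides, which was a condition of their choice. The LNCaP change of ITGA1 was not called without LNCaP CPSF1 sh1 replicate 3. By edgeR's contrast the line difference was -2.46 for F5, -1.92 for PHLDB2, -1.86 for ITGA1, -1.56 for HOXB9, -1.53 for IRS1 and -1.28 for ZMAT1. It was 2.57 for AKAP12, 2.23 for UGT2B11, 1.66 for HSPG2, 1.59 for GDF15, 1.51 for OTUB2 and 1.31 for GPRIN2.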

How the results depend on the processing

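Of 306 recomputed counts, 281 stayed within 1.5 times the reported value, and none of the 37 genes chosen by class or size of change, CPSF1 included, reversed its line difference, while list members were recomputed by count and median. HERC5 and LIF lost their calls under 18 of 30 settings each, and CPSF1 gained one under 2. CPSF1 sh1 alone gave 2043 genes called in 22Rv1, 327 called in 22Rv1 only and 330 in the same direction. CPSF1 sh2 alone gave 5323 genes called in 22Rv1, 1076 opposite, 956 in 22Rv1 only, 1133 in the same direction and 309 of the genes restricted to 22Rv1. Hairpins as separate groups gave 839 in the same direction. An adjusted p below 0.01 left 1872 genes called in 22Rv1, 227 opposite, 328 in 22Rv1 only and 185 in the same direction, and a 2-fold minimum left 214 positive and 109 negative line differences. For genes restricted to 1 line, edgeR's filterByExpr gave 349 called in LNCaP and 290 in 22Rv1, and a limit of 0.5 CPM gave 62 and 50. The stricter thresholds and limits remove genes by construction, and the cause of the difference between hairpins was not tested.

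Leaving out each library in turn gave 1966 to 2499 positive and 1950 to 2525 negative line differences, 5717 to 6781 genes called in LNCaP and 2248 to 3992 (without 22Rv1 CPSF1 sh1 replicate 3) in 22Rv1. Classes ranged over 345 (without 22Rv1 CTRL sh replicate 3) to 766 (without 22Rv1 CPSF1 sh1 replicate 3) opposite, 2417 to 2892 LNCaP only, 396 to 728 22Rv1 only and 287 (without the same library) to 626 in the same direction. Genes restricted to 1 line ranged over 87 to 101 called in LNCaP and, in 22Rv1, 67 (without CTRL sh replicate 1) to 198 (without LNCaP CPSF1 sh1 replicate 3).

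Replicate numbers were not taken as a pairing, since 4 of 18 same-numbered pairs had correlated deviations above 0.1 (range -0.126 to 0.257). With a replicate block the counts were 2141 positive, 2140 negative, 6263 in LNCaP, 2869 in 22Rv1, 454 opposite (444 shared with the 527), 2755 LNCaP only, 501 22Rv1 only, 406 in the same direction, and 95 and 106 restricted to LNCaP and 22Rv1. Genes restricted to 1 line were not run under the filter on 1 line's 9 libraries, without a filter or with all 27 libraries. Of 990 list medians, 47 moved by more than the replicate SD and 17 of these changed sign. Counts near 2 CPM limit the precision of genes such as ITGA1, SUSD2 and PHLDB2 in LNCaP.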

Other observations

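LNCaP95 is an androgen-independent derivative of LNCaP, and its 9 libraries entered the comparison above under the alternative of all 27 libraries. They were selected with 1 µg/mL puromycin, against 2 µg/mL for LNCaP and 22Rv1, and share no sample with those lines. Of the 218 genes that rose in LNCaP and fell in 22Rv1, 213 were tested in LNCaP95, where 91 (42.7%) rose and 55 (25.8%) fell on CPSF1 knockdown. Of the 309 with the reverse pattern, 293 were tested, where 81 (27.6%) rose and 118 (40.3%) fell. Over all 11143 genes tested in LNCaP95, 33.2% rose and 33.7% fell. The cholesterol list had no member called higher and 16 of 23 called lower in LNCaP95, at a median log2 fold change of -0.38. Among the named opposite genes, GDF15 fell by 1.35 (edgeR adjusted p = 6.46e-07) and OTUB2 fell by 0.71 (adjusted p = 0.00900), as they did in LNCaP. HSPG2 was 0.44 higher (adjusted p = 0.00103), UGT2B11 was 0.15 higher (adjusted p = 0.0122) and IRS1 fell by 0.30 (adjusted p = 0.000906), as in 22Rv1, whereas HOXB9 was 0.34 higher (adjusted p = 0.0246), as in LNCaP. PHLDB2 (0.02), ITGA1 (0.25) and AKAP12 (-0.21) were not called, and F5, ZMAT1 and GPRIN2 did not meet the expression minimum there.

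Of 5 mesenchymal genes tested, 3 had a positive line difference, at a list median of 0.82 that was 0.035 and 0.040 under other expression filters and -0.33 without one: FN1, ITGA5 (-1.24 in LNCaP, -0.42 in 22Rv1) and VIM (-0.20, 0.65). VIM, which encodes vimentin, was called opposite with all libraries and in 22Rv1 only without LNCaP CPSF1 sh1 replicate 3. Of 17 epithelial junction genes, 2 had a positive (11.8%) and 3 a negative (17.6%) line difference, both below the shares of all genes. The positive ones were ESRP1 and the desmosomal gene DSP, which had log2 fold changes of -0.40 in LNCaP and 0.35 in 22Rv1. Line differences of the junction list ran from -0.46 to 0.76. Of 24 lysosome and autophagy genes, 10 had a negative (41.7%) and 1 a positive (4.17%) line difference. The protease CTSD (0.66 in LNCaP, 0.19 in 22Rv1) and the proton pump subunit ATP6V0D1 (0.82, 0.16) rose more in LNCaP.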
